A study of Mus musculus with 4 samples.

Results

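The siSelT-5 knockdown of selenoprotein T in NIH 3T3 mouse fibroblasts was measured against empty vector on 2 of the 4 two-colour arrays of the series. On these 2 arrays 16232 of 22534 probes (72.03%) carried a value on both. Of them, 7038 also had a value on both arrays of the second construct, siSelT-1, and are called the shared class. A further 7460 had a value on neither siSelT-1 array and are called the siSelT-5-only class, so that 14498 probes entered the comparison. The remaining 1734, with a value on 1 siSelT-1 array, belong to no class. Probes with a single gene name gave 4754 genes in the shared class and 4948 in the siSelT-5-only class, 8955 different genes in all, of which 747 had probes in both.

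Each array paired Cy5-labelled RNA of knockdown cells with Cy3-labelled RNA of cells that carried the empty pU6-m3 vector. The siSelT-5 construct corresponds to nucleotides 971 to 989 of the Selt mRNA, and siSelT-1 to nucleotides 205 to 224. Knockdown and vector cells alike were stably selected with 150 µg/ml hygromycin B and kept in 10% serum with 100 nM selenite, and the replicates came from separate cultures harvested on separate occasions. The labels do not say whether a selected line was 1 clone or a pool, nor whether the arrays shared vector RNA. Cy5 marked the knockdown RNA throughout, so for any gene a bias between the dyes cannot be told apart from an effect of the knockdown.

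Selenoprotein T, encoded by Selenot (formerly Selt), is a thioredoxin-fold protein of the endoplasmic reticulum membrane that carries a selenocysteine. Selenocysteine is inserted at UGA codons by a dedicated machinery that includes the binding protein SECISBP2, and many selenoproteins act in redox control. Hairpin RNAs expressed from vectors enter the RNA interference pathway through exportin 5 and Dicer. No probe was named for Selenot, so the depth of its knockdown was not analysed here. The table holds ratios without signals, so the fibroblast identity could not be checked by level either.

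The probe classes had opposite offsets on the siSelT-5 arrays. As deposited, the median log2 ratio of the shared class was 0.43 on replicate 1 and 0.36 on replicate 2. In the siSelT-5-only class it was -0.61 on replicate 1 and -0.63 on replicate 2, and 70.17% of those probes lay below 0 on both arrays, against 15.4% of the shared probes. Every ratio below is therefore centred, that is, given as the difference from the median of its own class on its own array, in log2 units. "Rose" and "fell" mean relative to that median and past the test (limma, intercept-only fit per class, two-sided, with p adjusted by Benjamini-Hochberg across both classes and a threshold of 0.05).

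**Figure D1:**
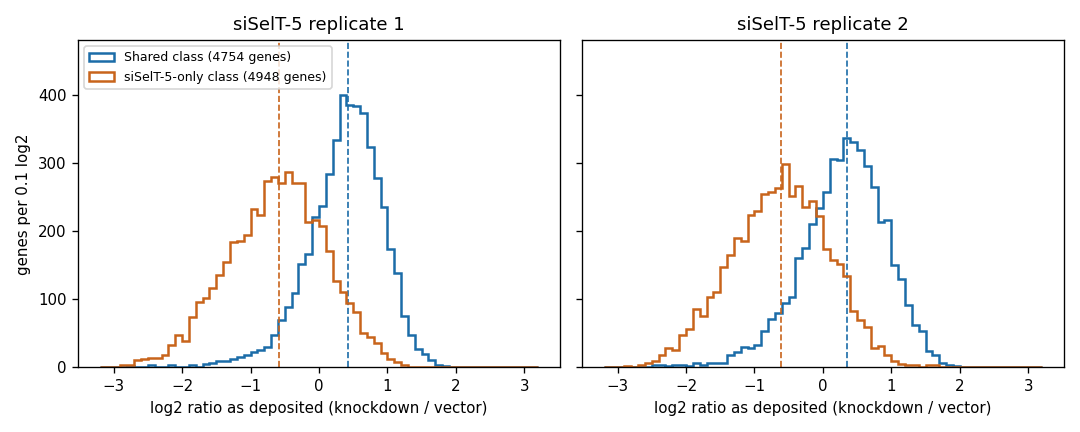
Histograms of the log2 ratio as deposited (x axis) by number of genes (y axis) on the siSelT-5 arrays, replicate 1 at left and replicate 2 at right, with dashed lines at the medians over genes. The shared class lies to the right of 0 and the siSelT-5-only class to the left on both arrays.

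In the shared class many genes of the cytosolic ribosome and of the respiratory chain rose, and Ccn2 and Thbs1, of the extracellular matrix, were among the genes that fell most. Of 4754 genes, 264 rose (5.55%) and 335 fell (7.05%), so that 44.1% of the changes were upward. As deposited, all 335 that fell lay below 0 on both arrays too. The 264 that rose had to lie above 0, since the class medians did. Changes of at least 2-fold numbered 230, of which 65 were up and 165 down, and 11 reached 4-fold. Adjusted p ran from 0.0205 to 0.0499, and 525 of the 599 changed genes rested on 1 probe. With ratios as deposited 1733 genes passed, 90.5% of them higher.

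In the siSelT-5-only class 326 of 4948 genes rose (6.59%) and 338 fell (6.83%), so that 49.1% of the changes were upward. As deposited, 317 of the 326 lay above 0 on both arrays. The 338 had to lie below 0, since the class medians did. Changes of at least 2-fold numbered 544, of which 260 were up and 284 down. Genes of this class with no probe valued on a siSelT-1 array numbered 3880, of which 247 rose and 292 fell. With ratios as deposited 2173 genes passed, of which 3.04% were higher. With 1 prior spread estimated over both classes together, 0 genes passed in either class (limma, smallest adjusted p 0.0589), while 1377 genes of the shared class and 1791 of the siSelT-5-only class had an unadjusted p under 0.05. Every call of a rise or fall below rests on the class-wise spread. Counts of list members below are to be read beside the class shares. These are 5.55% higher and 7.05% lower in the shared class, and 6.59% and 6.83% in the siSelT-5-only class.

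**Figure D2:**
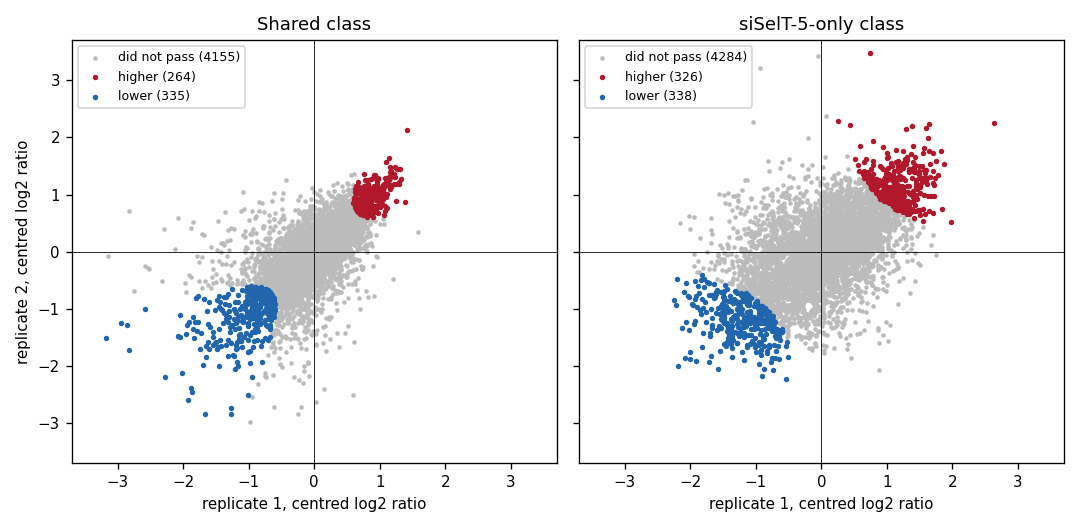
Centred log2 ratio of each gene on replicate 1 (x axis) and replicate 2 (y axis) for the shared class (left) and the siSelT-5-only class (right), with genes that rose in red, genes that fell in blue and the others in grey. The coloured points lie in the quadrants where both arrays have the same sign, and the siSelT-5-only class is spread wider.

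The replicates agreed more closely in the shared class. Pearson's r across its probes, taken as a description since probes are no replicates, between the 2 siSelT-5 arrays was 0.654, and 77.1% of probes had the same sign after centring. For the siSelT-5-only class r was 0.565 and the same-sign share 71.2%. The root mean square SD between the arrays was 0.361 in the shared class and 0.489 in the siSelT-5-only class. For the shared probes on the siSelT-1 arrays it was 0.159.

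Different probes of a gene often disagreed, which limits any statement that rests on 1 probe. In the shared class 751 genes had 2 probes. Their ratios correlated at a Pearson's r of 0.271 across genes, and the sign matched in 59.3%. Among the siSelT-5-only probes, r was 0.157 over 641 such genes and the sign matched in 52.4%.

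Cbr3, a carbonyl reductase gene (Entrez Gene 109857), stood highest in the shared class. Its centred ratio was 1.41 on replicate 1 and 2.13 on replicate 2, a mean of 1.77 ± 0.51 (SD, n = 2) or 3.42-fold (limma, adjusted p = 0.0230). The value was above the class median on both arrays. Usp37, which encodes a ubiquitin-specific protease, was at 1.14 and 1.63, and Rrp1, a factor of ribosomal RNA processing, at 1.33 and 1.28. Eef1d, a subunit of the translation elongation factor complex, was at 1.15 and 1.48. The core histone genes H2bc15 (1.30 and 1.45) and H2bc13 (1.24 and 1.48) and Rpph1, the RNA of ribonuclease P (1.16 and 1.40), rose too. Replication-dependent histone mRNAs and Rpph1 mostly lack a poly(A) tail, while the cDNA was primed with oligo dT, and H2b genes are near-identical copies, so these 3 values are uncertain. Asphd2, Ndufa4, Rps2, Bahcc1 and Atp5h completed the 12 highest, whose means spanned 1.27 to 1.77 and whose SDs spanned 0.0389 to 0.51.

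At the low end of the shared class, Prpf38b, a splicing factor gene, was at -3.18 and -1.51, a mean of -2.35 ± 1.18 (SD, n = 2). Ccn2, the connective tissue growth factor, was at -2.83 and -1.71. Thbs1, which encodes the matrix glycoprotein thrombospondin 1, was at -1.86 and -2.46. The values of these genes thus differed in size between the arrays, while the same sign on both arrays was a condition of being named. Gnai1, an inhibitory G protein subunit, had close replicates at -2.27 and -2.19, a mean of -2.23 ± 0.0567 or 4.70-fold lower (limma, adjusted p = 0.0205). Uvssa, a factor of transcription-coupled DNA repair, was at -1.88 and -2.39. Ccdc66, Pogk, Cask, Rnf13, 1700001F09Rik, Gata5 and Mb21d2 completed the 12 lowest, with means from -2.35 to -1.99. Cask, Rnf13, Gata5 and Mb21d2 had SDs above 1 and did not pass with robust eBayes, and Prpf38b, Cask and Rnf13 did not pass once each array was divided by its median absolute deviation.

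**Figure D3:**
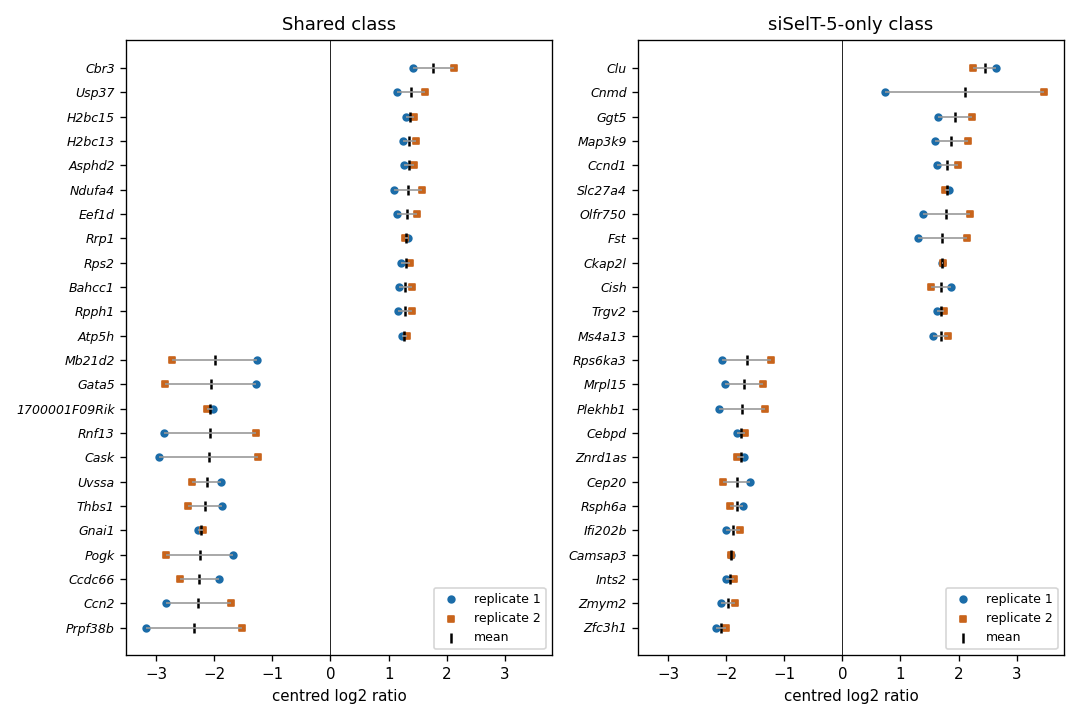
Centred log2 ratio (x axis) of the 12 highest and 12 lowest genes that passed in the shared class (left) and in the siSelT-5-only class (right), with replicate 1 as circles, replicate 2 as squares and the mean as a tick. All points of a gene lie on the same side of 0, as the naming required, and the gap between replicates is largest for Cnmd, at 0.74 and 3.48.

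Of 48 cytosolic ribosomal protein genes measured in the shared class, 27 rose, 0 fell and 21 did not pass, against 5.55% higher over all genes of the class, and 47 lay above the class median. Their median was 0.74, against -0.02 over all 4754 genes. It was above 0 on each array, at 0.72 on replicate 1 and 0.77 on replicate 2. Large-subunit genes counted 16 of 31 higher with a median of 0.75, and small-subunit genes 11 of 17 with a median of 0.72. Rps2, of the small subunit, was at 1.22 and 1.36, a mean of 1.29 ± 0.103 (SD, n = 2), or 2.45-fold (limma, adjusted p = 0.0227). The large-subunit genes Rpl28 (1.18 and 1.33), Rpl7a (1.24 and 1.18) and Rpl26 (1.15 and 1.26) followed. Rps15a alone lay below the median, at -0.24 and -2.24, and did not pass (limma, adjusted p = 0.143). Ribosomal protein genes have many near-identical pseudogenes, which the probes may not separate. The 6 members in the siSelT-5-only class had a median of 0.14, and 0 of them rose or fell (limma, with Rps24 closest at 0.79 and 0.68 and an adjusted p of 0.0898). In the siSelT-1 comparison the same 48 genes had a centred median of 0.41.

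Vertebrate ribosomal protein mRNAs typically begin with a 5′ oligopyrimidine tract, a C followed by a run of C or T. It was searched on the gene's strand as a C with at least 4 C or T behind it, beginning within 5 bases of the annotated start, in the RefSeq promoter table (GRCm38.p6). The start regions of the 4 ribosomal protein genes named above show how it varies among members that moved together, with the matched tract in capitals, 25 bases before the start and 15 from it.
Rps2, chr17:24720038-24720077, plus strand: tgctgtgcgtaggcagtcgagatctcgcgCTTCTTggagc
Rpl28, chr7:4792940-4792979, plus strand: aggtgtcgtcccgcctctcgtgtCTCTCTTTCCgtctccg
Rpl7a, chr2:26910782-26910821, plus strand: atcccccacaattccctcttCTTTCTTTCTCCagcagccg
Rpl26, chr11:68901541-68901580, plus strand: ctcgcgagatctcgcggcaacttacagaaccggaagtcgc
Rpl26 has no match by this definition at its listed start. Of 22 ribosomal protein genes that rose and had an entry, 10 held a match, and of 18 that did not pass, 9 did. A gene counts here if any of its promoters matched, which held for 21.2% of the 27025 genes of the table, and 18.3% of its 32851 promoters matched.

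Of 67 oxidative phosphorylation genes measured in the shared class, 19 rose and 0 fell, against 5.55% higher over the class, 60 lay above the class median, and their median was 0.51. The complexes were assigned by gene name, which counts Ndufa4 under complex I (NADH dehydrogenase). Of the genes named for complex I, 7 of 30 rose. Of complex II 0 of 4 rose, of complex III 2 of 6, of complex IV (cytochrome c oxidase) 3 of 10 and of the ATP synthase 6 of 15. The medians of these groups ran from 0.20 in complex II to 0.68 in the ATP synthase. Ndufa4, a cytochrome c oxidase-associated subunit named for complex I, was at 1.10 and 1.57, and the ATP synthase subunit gene Atp5h at 1.23 and 1.31. Cox7c, of complex IV, was at 1.19 and 1.32, a mean of 1.26 ± 0.0894 (SD, n = 2; limma, adjusted p = 0.0230). Ndufs1 was lowest, with a mean of -0.46 that did not pass. The 10 members measured in the siSelT-5-only class had a median of -0.11, and Ndufa5 alone rose, at 1.11 and 0.90; as deposited it did not pass.

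**Figure D4:**
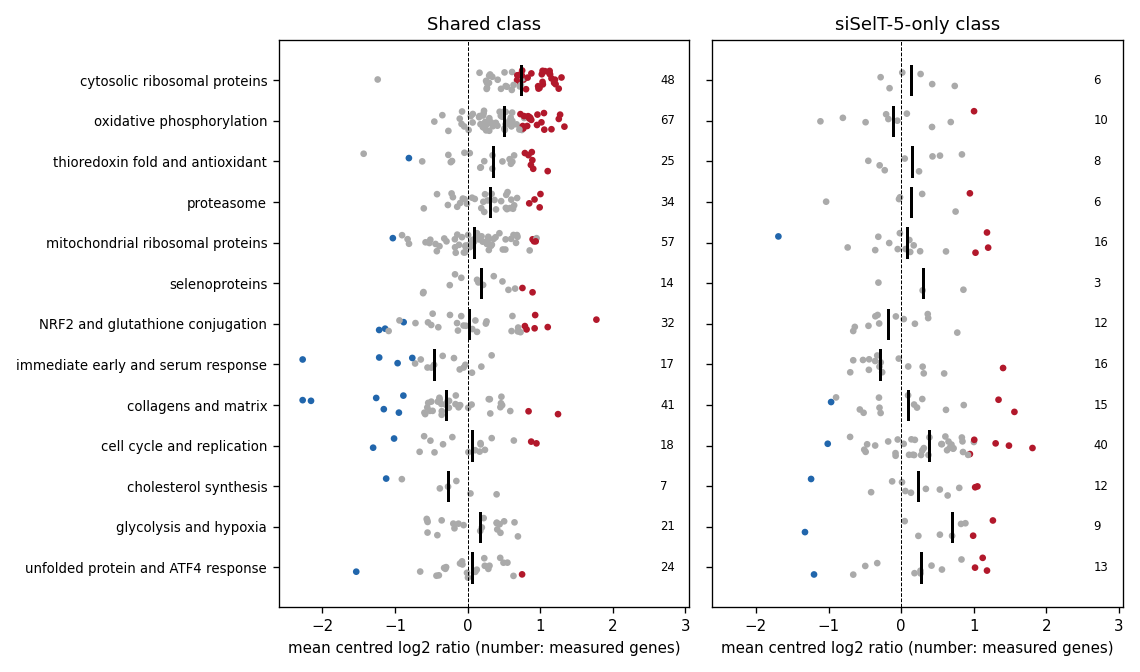
Mean centred log2 ratio (x axis) of the measured genes of 13 gene lists, each point a gene, in the shared class (left) and the siSelT-5-only class (right), with genes that rose in red, genes that fell in blue and medians as black bars. The ribosomal and oxidative phosphorylation genes of the shared class lie mostly to the right of 0, with medians of 0.74 and 0.51, and the immediate early and matrix genes mostly to the left, the matrix median turning to 0.09 as deposited.

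Of 57 mitochondrial ribosomal protein genes in the shared class 3 rose (5.26%) and 1 fell (1.75%), with a median of 0.09. Over the class 5.55% rose and 7.05% fell. Of 16 in the siSelT-5-only class 3 rose (18.8%, against 6.59%) and 1 fell, Mrpl15 (6.25%, against 6.83%). The 3 that rose, Mrpl48, Mrpl9 and Mrps12, did not pass as deposited. Proteasome genes had 4 of 34 higher (11.8%), 0 lower and a median of 0.30. Psme2, an activator subunit, was at 1.03 and 0.96, and the catalytic-core subunit genes Psmb2 and Psmb3 rose too. Of 6 proteasome genes in the siSelT-5-only class Psmb10 alone rose and 0 fell, and Psmb10 did not pass as deposited.

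Among the selenoproteins, the family of the targeted gene, 2 of 14 measured in the shared class rose (14.3%, against 5.55% over the class) and 0 fell. Selenow, a small thioredoxin-fold selenoprotein of the same Rdx family as selenoprotein T, was at 0.97 and 0.82, a mean of 0.89 ± 0.106 (SD, n = 2) or 1.86-fold (limma, adjusted p = 0.0336). Dio2, the deiodinase that activates thyroid hormone, was at 0.89 and 0.62 (adjusted p = 0.0471), and did not pass once arrays were divided by their median absolute deviation. Both lay above the median on both siSelT-1 arrays too, at 1.07 and 0.78 for Selenow and at 0.83 and 0.80 for Dio2. The glutathione peroxidase genes Gpx4 (0.49 and 0.82) and Gpx1 (0.35 and 0.37) did not pass, nor did Selenop, the plasma selenium carrier, at -0.54 and -0.67 (limma, adjusted p = 0.0625). Of the other Rdx members and endoplasmic reticulum selenoproteins, Selenoh was at 0.19 and 0.77, Selenok at 0.43 and 0.70, and Selenof at 0.20 and 0.09, none past the test. Selenos lay at -0.09 and -0.26. Several members had opposite signs on the replicates, among them Selenom (0.40 and -0.58), Selenon (-1.39 and 0.16) and the thioredoxin reductase gene Txnrd1 (-0.24 and 0.50). Msrb1 (0.17 and 0.26) and Txnrd3 (-0.33 and -0.16) lay near the class median and did not pass. The list's median of 0.18 in the shared class was 0.57 as deposited. Txnrd2 (-1.36 and 0.73), Sephs2 (0.06 and 1.66) and Selenoi (0.50 and 0.10), of the siSelT-5-only class, did not pass.

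Of the selenocysteine machinery 1 of 10 measured entries changed. Secisbp2l, a paralog of the SECIS-binding protein gene, fell, at -1.28 and -1.32, a mean of -1.30 ± 0.0273 (SD, n = 2; limma, adjusted p = 0.0227). Its probe in the siSelT-5-only class gave -1.18 and -0.69, which missed the threshold (adjusted p = 0.0507).

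Thioredoxin-fold and antioxidant genes had 7 of 25 higher, 1 lower and a median of 0.34 in the shared class. Several encode folding enzymes of the endoplasmic reticulum, where selenoprotein T resides. Pdia4, a protein disulfide isomerase, was at 1.07 and 1.14, a mean of 1.10 ± 0.0491 (SD, n = 2; limma, adjusted p = 0.0245). Erp29 (0.84 and 0.97), Txndc12 (0.78 and 0.98) and P4hb, the archetypal disulfide isomerase gene (0.76 and 0.98), rose as well. The cytosolic genes Prdx1, Sod1 and Glrx3 rose too, and Pdia5 fell, a call that was lost as deposited. None of the 8 members in the siSelT-5-only class passed, with Pdia6 closest at 0.82 and 0.85 (limma, adjusted p = 0.0643).

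NRF2 is the transcription factor that drives antioxidant and conjugation enzymes from antioxidant response elements. Of 32 such genes in the shared class, 6 rose (18.8%, against 5.55% over the class) and 3 fell (9.38%, against 7.05%), with a median of 0.02. Those that rose were Cbr3, the glutathione S-transferase genes Gstm1 (0.96 and 1.24), Gstm2 and Gsta4, the epoxide hydrolase gene Ephx1 and the peroxiredoxin gene Prdx1. Those that fell were Nfe2l2, the gene of NRF2 itself (-1.36 and -0.91), the drug exporter gene Abcc1 (-1.37 and -1.07) and the glutathione reductase gene Gsr, which did not pass as deposited. The glutathione synthesis gene Gclm (0.27 and 0.25), Hmox1 (0.49 and 0.90) and Nqo1 (-0.47 and -0.62), classical targets named after their values were seen, did not pass. Of 12 members in the siSelT-5-only class 0 rose and 0 fell, with a median of -0.19. Abcc1 also had a siSelT-5-only probe, at 0.30 and 1.25, opposite in sign to its shared probe. Bach1, a repressor that competes at the same elements and is not on this list, fell in the siSelT-5-only class, at -1.58 and -1.37 (mean -1.48 ± 0.154, SD, n = 2; limma, adjusted p = 0.0216).

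The element core TGACNNNGC was searched on both strands of the promoters, from 250 bases before to 50 after each start, and was found in 12.4% of 32851. The related AP-1 site TGANTCA, which can overlap it, was found in 7.81%. Among the changed NRF2-list genes with an entry, TGACNNNGC was in 1 of 5 that rose and in 1 of 1 that fell, and it was in 8 of 21 that did not pass, against 14.0% of all 27025 genes, counting any promoter of a gene. Both matches are shown, with 25 bases on either side where the table reached that far and the match in capitals, because they belong to members that moved in opposite directions.
Prdx1, chr4:116685441-116685499, plus strand, match read on the reverse strand: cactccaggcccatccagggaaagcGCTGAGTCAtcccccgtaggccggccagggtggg
Nfe2l2, chr2:75704870-75704913, minus strand: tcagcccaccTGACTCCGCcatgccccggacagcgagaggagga
These coordinates are those of the RefSeq table on GRCm38.p6, and a match is a description of the letters. The capitals of Prdx1 include TGAGTCA, which also matches TGANTCA. Among list genes TGANTCA was in 1 of 5 that rose, 0 of 1 that fell and 5 of 21 that did not pass. Over all 27025 genes it was in 8.97%, counting any promoter of a gene.

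Matrix genes of the shared class included 6 of 41 that fell, against 7.05% over the class, and 2 that rose. Their median was -0.30, which was 0.09 as deposited, so the direction of the list as a whole turns with the centring. Beside Ccn2 and Thbs1, the fibronectin gene Fn1 fell, at -1.35 and -1.17 (mean -1.26 ± 0.132, SD, n = 2; limma, adjusted p = 0.0230), as did the fibulin gene Fbln2 (-1.10 and -1.21), elastin (Eln) and tenascin C (Tnc, not past the test as deposited). Postn, for the matricellular protein periostin, rose, at 1.30 and 1.19, and Col6a2 rose too. Of 15 measured in the siSelT-5-only class, with a median of 0.10, the elastic-fibre gene Mfap2 (1.79 and 1.34) and the decorin gene Dcn (1.02 and 1.66) rose and Col11a1 fell. Dcn did not pass as deposited.

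Immediate early and serum response genes, which growth factor signalling switches on within minutes, had 0 of 17 higher and 4 lower in the shared class, with a median of -0.46 that was -0.07 as deposited. These were Ccn2, the MAP kinase phosphatase gene Dusp6 (-1.35 and -1.09), Klf6 (-1.06 and -0.87) and the mRNA decay factor gene Zfp36 (-0.75 and -0.78). Zfp36 did not pass as deposited. Spry4, an inhibitor of receptor tyrosine kinase signalling, rose in the siSelT-5-only class, at 1.36 and 1.45, where the 16 measured members had a median of -0.29.

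Of 10 listed growth factor and receptor genes in the shared class 1 rose and 2 fell, against 5.55% and 7.05% over the class. Fgf7, a fibroblast-derived growth factor for epithelia, fell at -1.64 on both arrays, a mean of -1.64 ± 0.00357 (SD, n = 2; limma, adjusted p = 0.0216). The receptor gene Egfr fell at -1.61 and -1.57, and the receptor gene Fgfr2 rose at 1.25 and 0.90. Of 9 in the siSelT-5-only class 0 rose and 1 fell, Ereg at -0.72 and -1.31. In the insulin-like growth factor axis, the kinase subunit gene Pik3ca (-1.28 and -1.40), Foxo3 and Irs1 fell, while Igfbp4 and Pik3r1 rose, 2 higher and 3 lower of 17. Of 8 members of this axis in the siSelT-5-only class, Igf1 rose, at 1.05 and 1.00, and Igfbp7 fell. Igf1, Foxo3 and Irs1 did not pass as deposited. The Wnt co-receptor genes parted, with Lrp5 at 1.22 and 1.19 and Lrp6 at -1.02 and -0.84. Of 12 Wnt pathway genes in the shared class 2 rose, Lrp5 and Fzd1, and Lrp6 alone fell. Of 16 in the siSelT-5-only class Tcf7l1 and Dvl3 rose and Rspo1 fell, and neither rise passed as deposited.

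Inflammatory genes of the shared class had 3 of 17 lower and 0 higher. Il1a, for interleukin-1 alpha, was at -1.446 and -2.002, its receptor gene Il1r1 at -0.95 and -1.03 and the chemokine gene Ccl2 at -0.70 and -1.08. Ccl2 did not pass as deposited. The chemokine gene Cxcl12, from 3 probes of the siSelT-5-only class, rose at 1.41 and 1.48, while Ccl17 and Nfkbie fell there. Of the interferon-responsive genes 1 of 23 rose (4.35%, against 5.55% over the shared class) and 2 fell (8.7%, against 7.05%). Ifi27 rose (0.83 on both arrays), and H2-K1 (-1.20 and -1.35) and Isg15 (-0.95 and -1.04) fell. In the siSelT-5-only class the related p200 family genes Ifi202b (-2.01 and -1.75) and Ifi203 (1.66 and 1.53) moved in opposite directions.

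The RNA interference machinery, which handles hairpin RNAs, showed 1 change among its measured genes. Xpo5, the hairpin exporter, fell at -1.55 and -1.41 (mean -1.48 ± 0.101, SD, n = 2; limma, adjusted p = 0.0216). The 9 members in the shared class had a median of -0.11. The 7 in the siSelT-5-only class all lay above the class median, at a median of 0.38, and 0 passed, with Dicer1 closest at 0.93 and 0.85 (limma, adjusted p = 0.0549). That median was -0.23 as deposited.

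Within the siSelT-5-only class the clusterin gene Clu (Entrez Gene 12759), a secreted and stress-responsive chaperone, stood highest. Its centred ratio was 2.64 on replicate 1 and 2.25 on replicate 2, a mean of 2.45 ± 0.274 (SD, n = 2) or 5.45-fold (limma, adjusted p = 0.00875). As deposited, Clu was at 2.04 and 1.62, and Cbr3 of the shared class at 1.84 and 2.49. Cnmd, for the cartilage protein chondromodulin, came next by mean, but its arrays gave 0.74 and 3.48, so that replicate 2 carried most of the mean, and it did not pass with robust eBayes. Ggt5, a gamma-glutamyl transferase that cleaves glutathione conjugates, was at 1.65 and 2.23, and the kinase gene Map3k9 at 1.59 and 2.16. Slc27a4, a fatty acid transporter gene, had close replicates at 1.83 and 1.77. Fst, for follistatin, which binds activin, was at 1.30 and 2.14, and Cish, a feedback inhibitor of cytokine signalling, at 1.87 and 1.53. Ccnd1, Olfr750, Ckap2l, Trgv2 and Ms4a13 completed the 12 highest, with means from 1.69 to 2.45. Olfr750, an olfactory receptor gene, and Trgv2, a T cell receptor segment, are not usually expressed in fibroblasts, and each rests on 1 probe.

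Lowest in the siSelT-5-only class was Zfc3h1, which encodes a factor of nuclear RNA decay, at -2.1798 and -2.0007, a mean of -2.09 ± 0.127 (SD, n = 2) or 4.26-fold lower (limma, adjusted p = 0.0205). Zmym2, of a corepressor complex, was at -2.09 and -1.85, and Ints2, of the Integrator complex that processes small nuclear RNAs, at -1.996 and -1.869. Camsap3, a protector of microtubule minus ends, had nearly equal replicates at -1.91 and -1.92. Cebpd, a transcription factor gene of the acute-phase response, was at -1.81 and -1.67. Ifi202b, Rsph6a, Cep20, Znrd1as, Plekhb1, Mrpl15 and Rps6ka3 completed the 12 lowest, with means from -2.09 to -1.64. Of the 24 highest and lowest genes of this class, 3 had another probe with a value on a siSelT-1 array, and the other 21 were seen on the siSelT-5 arrays alone.

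Cell cycle and replication genes were measured mostly in the siSelT-5-only class, where 5 of 40 rose and 1 fell, against 6.59% and 6.83% of the class. Their median was 0.38, with 30 above the class median, but -0.24 as deposited. Ccnd1, the gene of cyclin D1, rose in both classes, at 1.63 and 1.98 by its siSelT-5-only probes and at 0.76 and 0.99 by its shared probes. Birc5, for the mitotic regulator survivin, was at 1.40 and 1.57, a mean of 1.48 ± 0.116 (SD, n = 2; limma, adjusted p = 0.0216), and Top2a, the replication-linked topoisomerase gene, at 1.85 and 0.76. Aurkb and Rrm2 rose too, and Cdc25b fell. Top2a, Aurkb and Rrm2 did not pass as deposited. In the shared class 2 of 18 rose and 2 fell, and the replication licensing genes Mcm4 (0.94 and 0.96) and Mcm2 (-1.15 and -1.46) moved apart. The cell cycle inhibitor gene Cdkn1a rose, at 0.60 and 0.85.

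Genes of the unfolded protein and ATF4 response, which stress in the endoplasmic reticulum induces, had 3 of 13 higher and 1 lower in the siSelT-5-only class. These shares were 23.1% and 7.69%, against 6.59% and 6.83% over that class. The sensor kinase gene Eif2ak3 (PERK) was at 1.20 and 1.04, the folate enzyme gene Mthfd2 at 1.13 and 1.24, and the serine synthesis gene Psat1 at 0.95 and 1.09. Derl3, for a degradation factor of the endoplasmic reticulum, fell at -1.46 and -0.94. Eif2ak3, Mthfd2 and Psat1 did not pass as deposited. In the shared class 1 of 24 rose, Atf4 at 0.63 and 0.87 (mean 0.75 ± 0.172, SD, n = 2; limma, adjusted p = 0.0463), and 1 fell, the stress-induced Nupr1 at -1.49 and -1.58. Glycolysis and hypoxia genes had 2 of 9 higher in the siSelT-5-only class (Pfkp and Pfkfb4) and 1 lower (Pgk1, at -1.77 and -0.87), with a median of 0.70 that was 0.08 as deposited, and 0 of 21 passed in the shared class, where Vegfa was closest at 0.63 and 0.66 (limma, adjusted p = 0.0545). Of 12 cholesterol synthesis genes in the siSelT-5-only class, Lss and Cyp51 rose (16.7%, against 6.59%) and Sc5d fell (8.33%, against 6.83%). Of 7 in the shared class 0 rose and Fdps alone fell. Pfkp, Pfkfb4, Lss, Cyp51 and Fdps did not pass as deposited.

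Calcium handling, which selenoprotein T has been linked to in other cells, had 3 of 28 listed genes higher and 2 lower in the shared class. These shares were 10.7% and 7.14%, against 5.55% and 7.05% over the class. The median was 0.06, and 0 of 13 changed in the siSelT-5-only class. The plasma membrane calcium pump gene Atp2b1 fell, at -0.94 and -1.39 (mean -1.17 ± 0.318, SD, n = 2; limma, adjusted p = 0.0290), as did the calmodulin kinase gene Camk2d, which did not pass as deposited. Calm3, for calmodulin, Camk2b and the annexin gene Anxa4 rose. Heat shock and DnaJ genes had 4 of 32 higher (12.5%) and 3 lower (9.38%) in the shared class. Stip1, a co-chaperone that links HSP70 and HSP90, was at 1.08 and 0.71, and the chaperonin genes Tcp1 and Hspd1 and the small heat shock gene Cryab rose. Hsp90aa1, the inducible HSP90 gene, fell at -0.77 and -0.75, as did Hspa2 and Dnajc7, and as deposited none of the 3 passed.

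Adhesion and cytoskeleton genes had 2 of 52 higher (3.85%, against 5.55% over the class) and 1 lower (1.92%, against 7.05%) in the shared class, with a median of -0.06 that was 0.33 as deposited. Rac1, a small GTPase of actin protrusion, was at 0.96 and 1.11, and Myl9, a myosin light chain gene, rose too. Itgbl1, for an integrin beta-like protein, fell at -1.78 and -1.22. Of 24 in the siSelT-5-only class, the tropomyosin gene Tpm2 rose, at 1.06 and 1.52, and the actin-severing gene Cfl1 fell, at -1.44 and -1.24. Of 15 junction genes in the shared class 2 rose and 0 fell, namely Jup, for plakoglobin, at 1.03 and 0.90, and Ctnna1, for alpha-catenin. Of 12 in the siSelT-5-only class, the junctional adhesion gene Jam3 rose, at 1.30 and 0.88, and the E-cadherin gene Cdh1 fell, at -1.86 and -0.73. Tpm2 and Jam3 did not pass as deposited.

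Matrix proteases and their inhibitors had 2 of 18 higher (Serpinf1 and Adamts1) and 1 lower in the shared class, the sheddase gene Adam10 at -1.61 and -0.87. Of 13 in the siSelT-5-only class, Adamts1 and the protease inhibitor gene Timp4 (1.43 and 0.71) rose and the aggrecanase gene Adamts5 (-0.9998 and -1.7518) fell. Neither rise passed as deposited there. In the TGF-beta and BMP list 1 of 23 rose and 0 fell in the shared class, Id3 at 0.63 and 0.79. Of 18 in the siSelT-5-only class, Fst rose and Tgfb2, for a TGF-beta ligand, fell at -0.74 and -1.29.

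The 747 genes with probes in both classes gave a check within the same 2 arrays. Their class means correlated at a Pearson's r of 0.054 and a Spearman's rho of 0.049 across genes, and 52.1% had the same sign. By their shared probes 102 passed and by their siSelT-5-only probes 94 passed, and 8 passed in both. Over all genes 12.6% of the shared class and 13.4% of the siSelT-5-only class passed. Passing in both was thus no more frequent than these shares give. Of the 8 genes that passed in both, Adamts1, Ccnd1 and Islr rose in both, Atp9b, Snap23 and Wac fell in both, and Sltm and Snrpa1 had opposite directions. As deposited the calls of Atp9b and Wac by shared probes, of Adamts1 and Islr by siSelT-5-only probes and of Sltm by either were lost. Snap23, a membrane fusion protein gene, was at -1.17 and -1.93 by shared probes and at -1.81 and -1.42 by siSelT-5-only probes. Snrpa1, a splicing factor gene, was at -1.03 and -0.88 by its shared probe and at 1.16 and 1.55 by its siSelT-5-only probe. The cause of these disagreements was not tested.

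**Figure D5:**
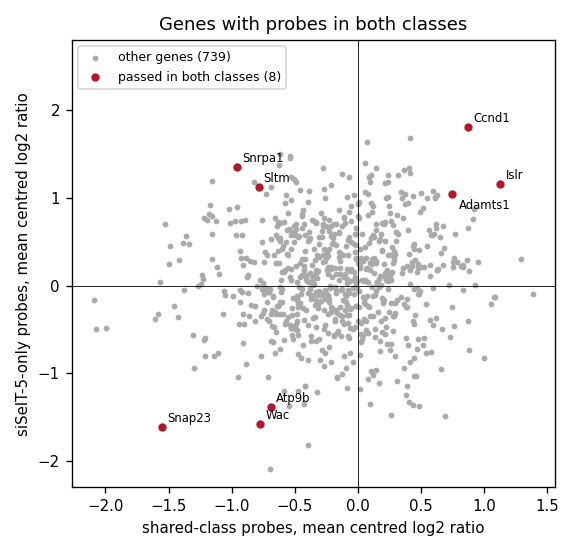
Mean centred log2 ratio over the siSelT-5 arrays from a gene's shared-class probes (x axis) and from its siSelT-5-only probes (y axis), for 747 genes, with the 8 that passed in both classes named in red. Pearson's r over the points is 0.054, and Snrpa1 and Sltm lie in the quadrant of opposite sign.

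By chromosome, the medians of the shared class ran from -0.15 on chromosome 1, with 9 higher and 25 lower of 241 genes, to 0.07 on chromosome 13, with 20 higher and 12 lower of 149. Chromosome 16 had 8 higher and 21 lower of 173, against 5.55% higher and 7.05% lower over the class. Its distal part, where Cbr3 lies, had 5 higher (17.2%) and 2 lower (6.9%) of 29 listed genes. There Cbr3, the nucleosome-binding protein gene Hmgn1 (0.96 and 1.18), Sod1, Pigp and Adamts1 rose, and Morc3 (-0.84 and -1.08) and Cfap298 (-0.77 and -1.23) fell. Morc3 and Cfap298 did not pass as deposited. Of 22 listed distal genes in the siSelT-5-only class 3 rose and 3 fell.

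The difference of siSelT-5 minus siSelT-1 was tested on the shared class with all 4 arrays, and a dye bias common to all arrays cancels in it. The fit gave each gene 1 spread for both constructs. The root mean square SD of shared probes was 0.159 on the siSelT-1 arrays and 0.361 on the siSelT-5 arrays, so the p-values of the difference are uncertain. Of 4754 genes 3 passed (0.0631%; limma, Benjamini-Hochberg adjusted over these genes), and 1228 had an unadjusted p under 0.05. Igf2, the fetal insulin-like growth factor gene, was at 0.64 and 0.60 on the siSelT-5 arrays and at -1.82 and -1.52 on the siSelT-1 arrays, a difference of 2.29 ± 0.164 (SE; adjusted p = 0.0471). Postn was at 1.30 and 1.19 on the siSelT-5 arrays and at -0.93 and -0.91 on the siSelT-1 arrays, a difference of 2.17 ± 0.137 (SE; adjusted p = 0.0379). Speer4b was at -0.50 on both siSelT-5 arrays and at 1.60 and 1.65 on the siSelT-1 arrays, a difference of -2.13 ± 0.133 (SE; adjusted p = 0.0379). Igf2 and Speer4b did not pass against vector in siSelT-5 alone (adjusted p 0.0582 and 0.0857). With an array of a construct left out, the spread comes from the arrays of the other construct alone. Without siSelT-1 replicate 1, or without siSelT-1 replicate 2, 0 genes passed, and without siSelT-5 replicate 1 or 2, 1761 and 1278 did.

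The next differences in each direction by unadjusted p, at sizes of 1.14 to 1.75, missed the threshold. Gm2a, for the ganglioside activator protein, was at -1.45 and -1.34 with siSelT-5 and at 0.41 and 0.31 with siSelT-1 (adjusted p = 0.0617). Rrp1, Mcm4, Tmem242 and A630052E07Rik were higher with siSelT-5 by 1.38, 1.14, 1.54 and 1.69, and Clcn2, Six5, Myef2 and Ralgds were lower, with adjusted p of 0.0755 for each of these 8. Cbr3 was at 3.00 and 3.06 on the siSelT-1 arrays, 1.26 above its siSelT-5 mean, a difference that did not pass (limma, adjusted p = 0.106).

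Fibroblast markers had 1 of 16 higher (Postn) and 2 lower (Fn1 and Fbln2) in the shared class, with a median of -0.27 that was 0.13 as deposited. Of 3 in the siSelT-5-only class Dcn rose and 0 fell, with a median of 0.62. Markers of other cell types were measured mostly in the siSelT-5-only class. Of 4 macrophage markers there, Itgam (1.27 and 1.06) and Cd68 (0.80 and 1.24) rose and 0 fell, while 0 of 3 passed in the shared class, with Lyz2 closest at -0.62 and -0.63 (limma, adjusted p = 0.0579). Of 9 neuron and glia markers Mag and Olig2 rose, of 5 lymphocyte markers Nkg7 rose, of 6 epithelial markers Cdh1 fell and of 4 bone and cartilage markers Comp fell. None of the 10 endothelial, 3 adipocyte and 3 skeletal muscle entries passed (limma, closest adjusted p 0.0609). Itgam, Cd68, Olig2 and Nkg7 did not pass as deposited. In bulk RNA fewer cells of a type and less RNA per cell cannot be told apart, and the part of other cell types in these ratios was not tested.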

How the data were processed

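The values are log2 ratios of the 2 channels of each array as deposited by the authors, in a table of 22534 probes, of which 18129 carry a single gene name, 140 several and 4265 none. The direction, knockdown over vector, follows the sample titles and dye labels. The log base, background correction, normalization and filter on missing values are not given in the sources used here, and every fold rests on reading the base as 2. A reversed ratio would turn every direction. Entrez identifiers of 18041 single-name probes matched the GRCm38.p6 RefSeq gene table, which changed 0 symbols.

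Each array was centred on the median of all probes of a class, and probes of a gene were averaged within the class. limma 3.58.1 in R 4.3.3 (lmFit, eBayes) tested the mean of the 2 siSelT-5 arrays against 0, with a prior spread per class (3.86 prior degrees of freedom and a prior SD of 0.235 in the shared class, 12.6 and 0.42 in the siSelT-5-only class). With 1 residual degree of freedom per gene, the prior decides much of each p. siSelT-5 minus siSelT-1 was fitted as 2 group means on 4 arrays, with 1 spread per gene for both constructs. The number of arrays limits the precision, no test takes in how vector cultures vary, and both comparisons may share vector RNA, so no correlation between them is given. Scripts were tested on simulated data.

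The members, the 39 gene lists and the tests were chosen with earlier results of these data known. Named genes are the 12 highest and 12 lowest that passed per class, the 6 highest and 6 lowest of the difference (filled in order of unadjusted p where fewer passed), all selenoproteins, up to 4 members per list and class by adjusted p (2 where none passed), and genes with probes in both classes. Other list members that passed were named after their values were seen. Lists are described by counts and medians without a set test. The histone list, which lacks H2bc13 and H2bc15, and the Hox list each had 1 member higher and 0 lower in the shared class (H2bc4 and Hoxd3) and 0 changed in the other, and the p53 list had Cdkn1a higher there and 1 higher and 1 lower in the siSelT-5-only class. Alternatives covered centring, prior, probe averaging, unnamed probes, scaling, thresholds, class definition, a replicate block and each array left out.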

Additional observations from a re-analysis of the deposited data

Results flagged for a closer look

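In 3 genes the siSelT-5 and siSelT-1 effects differed by the test of the difference itself (limma, 4 arrays, adjusted p under 0.05 over 4754 genes). That fit gave each gene 1 spread for both constructs, although the siSelT-1 arrays varied less. Igf2 differed by 2.29 log2, with 0.62 as the siSelT-5 mean and -1.67 as the siSelT-1 mean. Postn differed by 2.17, with 1.24 against -0.92. Speer4b differed by -2.13, with -0.50 against 1.63. Igf2 and Speer4b rest on 1 probe each and Postn on 2. Their adjusted p was 0.0471, 0.0379 and 0.0379, and over the alternatives run it ranged up to 0.688. Each call was lost when either siSelT-1 array was left out.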

How the results depend on the processing

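The counts of changed genes moved widely with the processing. Of 599 changed genes in the shared class, 0 passed at an adjusted p under 0.01 and 230 were also at least 2-fold. The count was 0 with 1 prior spread over both classes, 1632 with all 4 arrays as 2 group means, 2156 centred on all probes of the siSelT-5 arrays and 1733 as deposited. It was 2210 to 2574 when a siSelT-5 array was left out, a fit in which the lone array is assumed to vary like the siSelT-1 arrays. Of 664 in the siSelT-5-only class, 1 passed at 0.01, 0 with 1 prior spread, 1993 centred on all probes, 2173 as deposited and 1212 with probes valued on 1 siSelT-1 array added. Leaving out an array leaves no residual degrees of freedom in that class, so it was not tested there. For siSelT-5 minus siSelT-1 the count of 3 became 76 with the replicate number as a block (replicate block), 14 higher and 62 lower. Leaving out each array gave 0 to 1761. The replicate numbers share no label beyond the number, and same-numbered deviations correlated at 0.076 across genes.

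Of 182 calls among the named genes, 182 were lost with 1 prior spread, 37 as deposited, 35 centred on all probes, 8 with arrays divided by their median absolute deviation, 7 with single-probe genes and 5 with robust eBayes. No named gene that passed changed its direction under the alternatives run. Changing the centring or leaving out an array could not have reversed one. Ratios that passed were at least 0.679 in size in the shared class and 0.917 in the siSelT-5-only class. That is more than the other centrings moved them, and every gene that passed had the same sign on both arrays. The values that changed sign belong to genes that did not pass. As deposited and centred on all probes, Selenom was 0.31 and 0.37, Selenos 0.22 and 0.28, Txnrd3 0.15 and 0.21, Mbp 0.042 and 0.10, Selenoi -0.32 and -0.26, Nxn -0.083 and -0.023, and Rps20 (siSelT-5-only) -0.19 and -0.13. Centred on all probes, Lyz1 was 0.037 and Cd2 0.0101. H4c9 was 0.034 with probes valued on 1 siSelT-1 array added. With a siSelT-5 array left out, Selenom ran from -0.58 to 0.40, Selenon from -1.39 to 0.16, Txnrd1 from -0.24 to 0.50 and Tie1 from -0.10 to 0.59. The causes were not tested. Without signals, how far each probe stood above background is unknown.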
